A study of Arabidopsis thaliana with 8 samples.

Results

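The transcriptome of *ref6* buds was compared with that of Col-0 buds, using every gene of the expression tables. The comparison rests on 4 of the 8 libraries of the series, 2 from *ref6* and 2 from Col-0, and a second reading sets libraries with the same replicate number against each other. Messenger RNA came from floral buds at stages 9 to 13, and the study asked what loss of each of 3 histone demethylases does to gene expression in the bud. The *ref6* plants carry a T-DNA insertion, named *ref6-1* in the study's methods, in the Col-0 background. Col-0 is the wild-type accession and carries no insertion. The other 4 libraries, 2 each from *elf6* and *jmj13* insertion plants in the same background, entered the fit to estimate the spread and are given as a second set of reference values. All 8 libraries are whole buds and so mix every floral organ. A lower value of a gene can therefore come from fewer cells of a type or from less RNA per cell, which cannot be told apart here. Nothing in the labels says whether the 2 libraries of a genotype came from separate plants, so p-values measure only the spread between these libraries.

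REF6 (RELATIVE OF EARLY FLOWERING 6) is a JmjC-domain enzyme that removes methyl groups from H3K27me3, the histone mark that Polycomb repressive complex 2 places on silent genes. Genes that carry the mark tend to stay silent, and its removal lets them be expressed. REF6 differs from most histone demethylases in that it reads DNA itself, through C2H2 zinc fingers at its C-terminal end that bind a short CTCTG-type motif. ELF6 and JMJ13 are related demethylases, and CUC1, an organ boundary regulator, is among the genes known to be bound by REF6 in seedlings.

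The insertion of *ref6-1* is described as disrupting the zinc finger end of the protein while the catalytic domain upstream is still transcribed. A stretch of *REF6* within the region that encodes the fingers is shown for this reason. It lies in the last coding exon, at chr3:17940175-17940429 on the plus strand of the RefSeq TAIR10.1 assembly, and spans coding bases 3802 to 4056 of 4083. Capitals mark the codons of the cysteine and histidine pairs in 3 stretches that match a C2H2 pattern. A finger with another spacing would not be marked and could lie outside the sequence shown.
REF6 zinc finger coding sequence: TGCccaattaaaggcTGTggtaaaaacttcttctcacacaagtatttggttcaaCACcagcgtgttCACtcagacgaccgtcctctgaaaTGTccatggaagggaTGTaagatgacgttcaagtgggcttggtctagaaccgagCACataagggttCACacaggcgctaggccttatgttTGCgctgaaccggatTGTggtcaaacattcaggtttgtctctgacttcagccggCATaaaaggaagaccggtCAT

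The expression of *REF6* itself does not separate the genotypes. Values are CPM, expected counts divided by library size and scaled by TMM (trimmed mean of M-values, which corrects for differences in library composition). *REF6* had 14.7 and 9.24 CPM in the *ref6* libraries, against 10.3 and 8.89 CPM in the Col-0 libraries. The ranges overlapped, and the log2 fold change was 0.31 ± 0.345 (SE, n = 2 each, edgeR quasi-likelihood adjusted p = 0.999). A gene total counts reads from both sides of the insertion, so it does not check the genotype label. *ELF6* had 10.7 and 9.16 CPM in *ref6*, against 7.78 and 7.59 CPM in Col-0, and *JMJ13* had 2.37 and 3.88 CPM in *ref6*, against 2.52 and 4.4 CPM in Col-0. Neither passed the test (edgeR adjusted p = 0.999 for each).

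Replicate 1 of both genotypes stood apart before any comparison. The 50 most abundant genes took 30.5% and 20.3% of the counts in *ref6* replicates 1 and 2, against 29.3% and 21.4% in Col-0 replicates 1 and 2, and 18.4% to 20.1% in the other 4 libraries. Depth did not differ in this way, with 11926737 and 12048319 expected counts in *ref6*, against 11833376 and 11466208 in Col-0. The log2 ratio of replicate 1 to replicate 2 correlated between *ref6* and Col-0 across genes (Pearson r = 0.364). It also did so between *elf6* and *jmj13* (r = 0.268), and less in the 4 other combinations (r = 0.0153 to 0.0881). The SD of that ratio over genes was 0.78 in *ref6*, against 0.79 in Col-0, with 0.48 and 0.49 in *jmj13* and *elf6*. Genes are not independent replicates, and these r are given as a description only. The same-numbered pairs set libraries with a similar share of abundant genes against each other.

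Over both libraries of each genotype, 1 of 19939 tested genes was a differentially expressed gene (DEG), defined by an adjusted p-value under 0.05 and at least a 2-fold change, which is 0.00502% of the genes tested. This gene, AT5G39850, fell in *ref6*. No gene rose at this threshold in edgeR, whereas DESeq2 called 33 genes, 10 of them higher. Without the adjustment, 404 genes were higher (2.03%) and 527 lower (2.64%) in *ref6* with p under 0.05 by edgeR's test.

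AT5G39850 is annotated as a protein of the S4 family of ribosomal proteins, which sit in the small subunit of the cytosolic ribosome, and has 3 exons at chr5:15949910-15951475. It had 2.71 and 4.19 CPM in *ref6* (24 and 54 counts), against 20.7 and 23.2 CPM in Col-0 (181 and 269 counts). Both *ref6* libraries lay below every other library of the series, and *elf6* and *jmj13* libraries had 21.7 to 26.4 CPM. The log2 fold change was −2.65 ± 0.284 (SE, n = 2 each, edgeR adjusted p = 0.044). Leaving out any 1 of the 4 libraries ended the call, with log2 fold changes of −3.01 to −2.39. The closest other gene, AT5G15200, is 80.5% identical over 599 aligned bases and had 2017 and 1329.7 CPM in *ref6*, against 2497 and 1413 CPM in Col-0 (log2 fold change −0.22 ± 0.359, edgeR adjusted p = 0.999).

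AT1G65370, a member of the TRAF-like family, was the next gene and became the second DEG when the replicate number was a block in the fit. It had 5.31 and 8.38 CPM in *ref6*, against 29.5 and 38.5 CPM in Col-0. The *ref6* libraries were again the lowest of all 8, with *elf6* at 51 and 51.7 and *jmj13* at 68.6 and 65.6 CPM. Its log2 fold change was −2.3 ± 0.29, with an edgeR adjusted p of 0.0974 without the block and 0.034 with it. AT5G39850 had an edgeR adjusted p of 0.0155 with the block. The 2 DEGs of that fit are 0.01% of the genes tested.

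Reading the pairs separately, 98 genes were at least 2-fold higher in *ref6* in both pairs (0.491% of 19939) and 227 were at least 2-fold lower in both (1.14%). The counts describe 4 libraries and come from no test. These shares are the background for every count of list members beyond 2-fold in both pairs, a count of 0 included. The pair of replicates 1 differed by at least 2-fold in 3084 genes and the pair of replicates 2 in 1133 genes, and 161 genes passed 2-fold in opposite directions. The SD of the log2 ratio was 0.79 in the pair of replicates 1 and 0.51 in the pair of replicates 2, and the ratios of both pairs correlated weakly across genes (r = 0.12). Crossing the numbers gave 306 genes alike in direction (1.53%), close to the 325 of the numbered pairs, but 1022 genes in opposite directions. Of the 325, 166 also passed 2-fold in both crossed ratios, 46 higher and 120 lower.

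**Figure D1:**
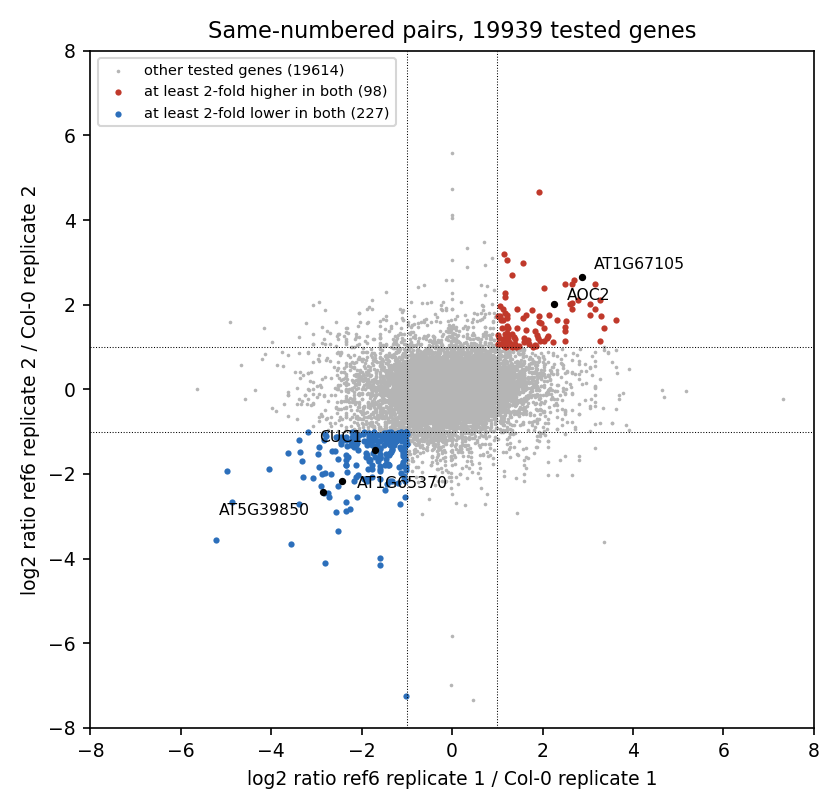
Log2 ratio of each tested gene in the pair of replicates 1 (x axis, ref6 over Col-0) against the pair of replicates 2 (y axis), each point 1 gene and dotted lines at 2-fold. The 98 red and 227 blue genes lie beyond 2-fold in the same direction in both pairs, while the cloud of other genes is wider along x, with an SD of 0.79, than along y, with 0.51.

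Most of these genes were weakly expressed. The median over the 4 libraries was 11.25 counts for the 98 higher genes and 19.75 counts for the 227 lower genes, against 108.25 counts for all tested genes. A mean of at least 50 counts was reached by 15 of the higher and 67 of the lower genes. Among the 98 higher genes, 72 had an unadjusted p under 0.05 in edgeR's test, and among the 227 lower genes 198 did. These shares read the same libraries as the choice of genes and support nothing by themselves.

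The *elf6* and *jmj13* libraries give a second reference for these genes. Among the 227 lower genes, both *ref6* libraries lay below all 6 other libraries in 112, and both Col-0 libraries lay above all 6 other libraries in 92. Over all tested genes these shares were 3.87% and 3.2%. Among the 98 higher genes, both *ref6* libraries lay above the other 6 in 34 (2.7% of all tested genes), and both Col-0 libraries lay below the other 6 in 37 (4.46%). The choice of genes used the *ref6* and Col-0 values, so these counts are descriptions. They do not divide the list, since a gene can be at an extreme in both genotypes. In AT1G17030, both *ref6* libraries were the lowest and both Col-0 libraries the highest.

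Several well-measured lower genes were at an extreme in *ref6*. Over all tested genes, 12.5% had the 2 *ref6* values under the 2 Col-0 values and 13.6% had them over, which is the background for each statement that the genotypes did not overlap. PMSR1, which repairs oxidised methionine in proteins, had 1.36 and 1.79 CPM in *ref6*, against 11.1 and 7.68 CPM in Col-0, with *elf6* and *jmj13* libraries at 5.23 to 9.75 CPM. AT1G51670, of unknown function, had 2.15 and 3.18 CPM in *ref6*, against 11.4 and 12.8 CPM in Col-0. Its annotated span overlaps AT1G51660 and AT1G51680, whose reads may be counted with it. The genotypes did not overlap in either gene, with log2 fold changes of −2.55 ± 0.373 and −2.16 ± 0.329 (edgeR adjusted p = 0.121 and 0.146).

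Cpn60beta3, a subunit of the chaperonin that folds proteins in plastids, had 7.12 and 7.99 CPM in *ref6*, against 32.7 and 20.8 CPM in Col-0 (log2 fold change −1.82 ± 0.314, edgeR adjusted p = 0.213). AT1G07450, of the NAD(P)-binding Rossmann-fold superfamily, had 4.86 and 5.67 CPM in *ref6*, against 15.4 and 18.6 CPM in Col-0. AT5G03390, which encodes a protein with a DUF295 domain, had 19.0 and 9.08 CPM in *ref6*, against 81.7 and 53.7 CPM in Col-0. AT1G67620, related to the plastid ribosome factor Lojap, had 6.33 and 3.8 CPM in *ref6*, against 19.6 and 17.2 CPM in Col-0. In all 4 genes the highest *ref6* library was below the lowest of the 6 others, and none passed the adjusted threshold (edgeR adjusted p of 0.148 for each of the last 3).

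The widest gaps were in genes nearly without counts in *ref6*. AT1G71690, a glucuronoxylan 4-O-methyltransferase-like gene, had 0 and 1 count in *ref6*, against 54 and 32 counts in Col-0, at least 15.6-fold lower when *ref6* is set at a floor of 3 counts per library. The *elf6* and *jmj13* libraries held the transcript at 1.82 to 4.16 CPM. The gene was chosen after its values were seen, and it did not pass the test (edgeR adjusted p = 0.119).

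Other lower genes were less evenly arranged. FSD1, an iron superoxide dismutase, had 17.41 and 4.04 CPM in *ref6*, against 73.9 and 16.8 CPM in Col-0, so that *ref6* replicate 1 was above Col-0 replicate 2 although each pair differed about alike, at log2 ratios of −2.07 and −2.01. GSTF6, a glutathione S-transferase, had 4.86 and 2.95 CPM in *ref6*, against 24.5 and 9.32 CPM in Col-0, with 9.98 to 17.3 CPM in *elf6* and *jmj13*, so that both *ref6* libraries were the lowest of all 8. AT4G12530, a lipid-transfer-type protein, had 6.1 and 2.33 CPM in *ref6*, against 20.8 and 6.9 CPM in Col-0, and *jmj13* libraries were as low as *ref6*, at 2.73 and 1.67 CPM. AT1G17030 had 3.39 and 2.87 CPM in *ref6*, against 9.61 and 9.4 CPM in Col-0, with 3.79 to 6.95 CPM elsewhere. Over all 4 libraries FSD1 overlapped between the genotypes, and the other 3 genes did not (edgeR adjusted p of 0.452 to 0.999 for the 4 genes). AT5G07842 had expected counts of 31.89 in both *ref6* libraries, against 111.62 in both Col-0 libraries. Its counts in all 8 libraries are whole multiples of 15.945, within 0.01 of that step, with 2 steps in each *ref6* library and 7 in each Col-0 library, so its precision is lower than the count shows.

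The well-measured higher genes held an RNA, a protease and a lectin. AT1G67105 is a noncoding RNA gene of 1 exon at chr1:25057479-25058264. It had 184 and 68.4 CPM in *ref6*, against 25 and 10.7 CPM in Col-0, and 0.316 to 2.73 CPM in *elf6* and *jmj13*. The Col-0 libraries therefore also lay above the 4 others, and the *ref6* values were the highest of all. Its log2 fold change against Col-0 was 2.83 ± 0.583 (edgeR adjusted p = 0.456).

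AT4G11310, a cysteine protease of the papain family, had 14.4 and 16.1 CPM in *ref6*, against 1.94 and 3.62 CPM in Col-0 (log2 fold change 2.43 ± 0.355, edgeR adjusted p = 0.121). AT4G11320 is 86.8% identical to it over 1355 aligned bases, and its expected counts were fractional (126.77 and 208.42 in *ref6*), so reads may have been divided between them. JAL23, a jacalin-related lectin, had 152 and 164 CPM in *ref6*, against 49.1 and 48.7 CPM in Col-0 (log2 fold change 1.7 ± 0.264, edgeR adjusted p = 0.148). The gap in JAL23 is wide against a small spread, and the *elf6* and *jmj13* libraries lay at 38.4 to 65 CPM. MLP43, a protein of the major latex protein family, had 10.4 and 9.62 CPM in *ref6*, against 0.915 and 2.76 CPM in Col-0 (log2 fold change 2.4 ± 0.454, edgeR adjusted p = 0.307).

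AT3G52870, with an IQ calmodulin-binding motif, shows the opposite arrangement. It had 8.93 and 13.4 CPM in *ref6*, against 2.06 and 2.42 CPM in Col-0, and *elf6* and *jmj13* libraries had 9.4 to 12.9 CPM. The Col-0 libraries were the ones that stood apart, and the difference between *ref6* and the mean of *elf6* and *jmj13* was 0.01 ± 0.246 on the log2 scale (edgeR adjusted p = 0.986). Against Col-0 the log2 fold change was 2.32 ± 0.323 (edgeR adjusted p = 0.119).

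GolS1, a galactinol synthase that starts the raffinose pathway, had 60 and 97.3 CPM in *ref6*, against 24 and 39 CPM in Col-0. LSH10, of a family of nuclear proteins that act at organ boundaries, had 45.7 and 20.7 CPM in *ref6*, against 12.1 and 8.89 CPM in Col-0. AT3G53980, a lipid-transfer-type protein, had 16.1 and 8.38 CPM in *ref6*, against 4.8 and 3.88 CPM in Col-0. In these 3 genes the genotypes did not overlap, and the edgeR adjusted p ranged over 0.539 to 0.827. AT4G20840, a berberine-bridge-type oxidase, had 5.09 and 7.84 CPM in *ref6*, against 1.94 and 3.62 CPM in Col-0, and the dirigent-like AT4G11210 had 10.06 and 5.98 CPM in *ref6*, against 4.23 and 1.64 CPM in Col-0 (edgeR adjusted p = 0.999 for each).

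**Figure D2:**
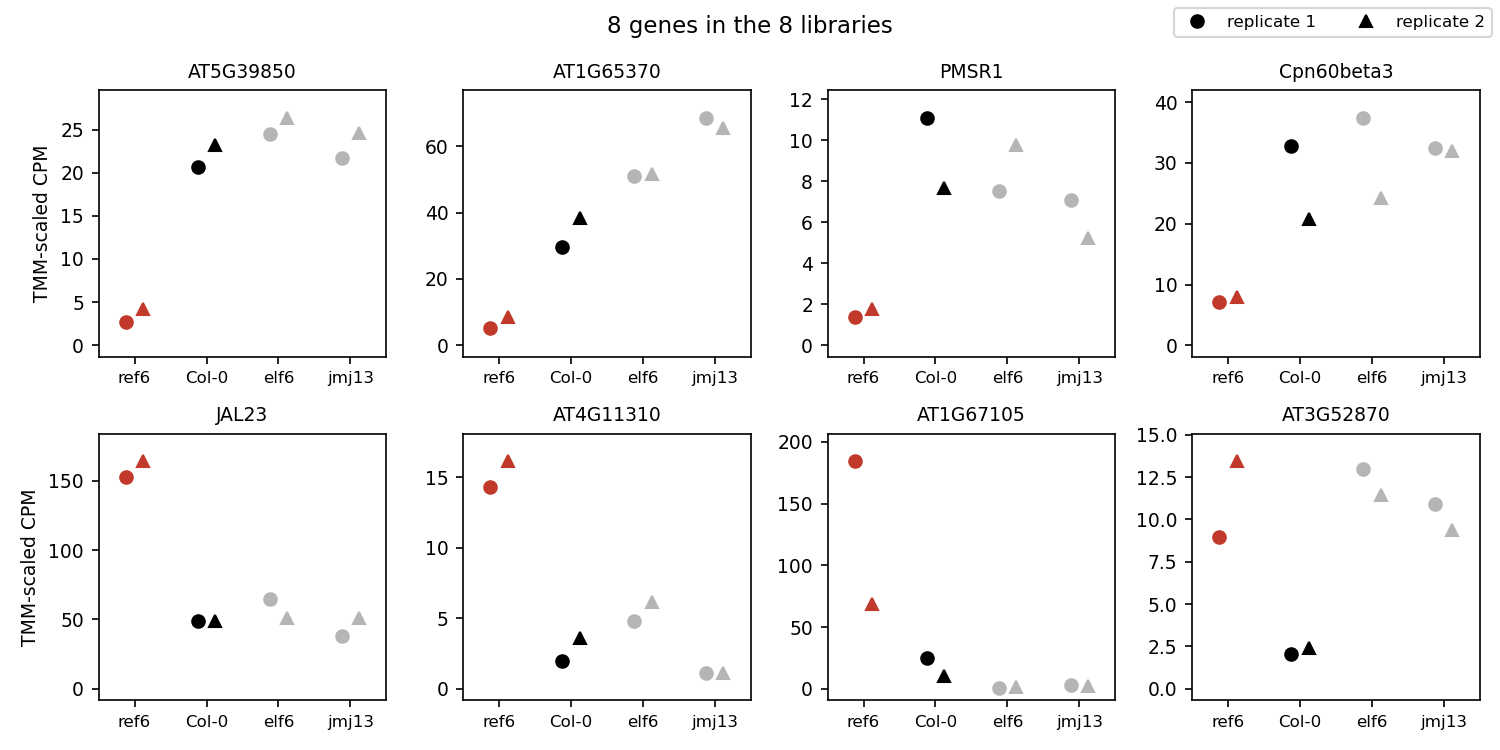
TMM-scaled CPM (y axis) of 8 genes in each library, with circles for replicate 1 and triangles for replicate 2, ref6 in red, Col-0 in black and the elf6 and jmj13 libraries in grey. AT5G39850 is at 2.71 and 4.19 CPM in ref6 and above 20 in the other 6 libraries, whereas in AT3G52870 the Col-0 libraries are the low ones, at 2.06 and 2.42 CPM.

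Most genes of jasmonate synthesis and response were higher in *ref6* in both pairs, by small differences of which none passed the adjusted threshold. Jasmonate is a lipid-derived hormone made from linolenic acid by a lipoxygenase (LOX), allene oxide synthase (AOS), allene oxide cyclases (AOC) and OPR3, and it controls stamen maturation and the defence against wounding. These lists were chosen after the values were seen, as were LOX2, AOS, AOC4, JR1, CORI3, BAM5, THI2.1, MBP1 and JAL34 among the genes named from them. Of 13 tested synthesis genes, 9 were higher in both pairs and 2 passed 2-fold in both, with a median log2 fold change of 0.6. Of 9 tested jasmonate-responsive genes, 7 were higher in both pairs and 0 passed 2-fold in both, with a median of 0.84. The median over all tested genes was −0.02, 24.7% of them were higher in both pairs, and 0.491% were at least 2-fold higher in both.

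At the start of the pathway, LOX2 had 577 and 575 CPM in *ref6*, against 297 and 310.1 CPM in Col-0 (log2 fold change 0.93 ± 0.254, edgeR adjusted p = 0.906). AOS had 66 and 53.4 CPM in *ref6*, against 44.9 and 34.1 CPM in Col-0. The cyclases differed among themselves. AOC2 had 18.7 and 6.05 CPM in *ref6*, against 3.77 and 1.38 CPM in Col-0, and AOC1 had 13.8 and 6.44 CPM in *ref6*, against 6.06 and 3.02 CPM in Col-0. AOC4, an abundant cyclase, had 327 and 205 CPM in *ref6*, against 332 and 181 CPM in Col-0, and overlapped. AOC1 and AOC2 are neighbours with 86.1% identical transcripts, so that reads may have been divided between them.

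Among the responsive genes, VSP2, a vegetative storage protein, had 1176 and 1548 CPM in *ref6*, against 649 and 669 CPM in Col-0 (log2 fold change 1.05 ± 0.291, edgeR adjusted p = 0.906). VSP1, its close relative, had 4257 and 4813 CPM in *ref6*, against 2533 and 2908 CPM in Col-0. JR1 had 157 and 130.1 CPM in *ref6*, against 74.1 and 74.5 CPM in Col-0. CORI3 had 35 and 34.8 CPM in *ref6*, against 18.6 and 12.7 CPM in Col-0, and BAM5 had 310.4 and 519 CPM in *ref6*, against 169 and 211 CPM in Col-0. The genotypes did not overlap in these 5 genes. THI2.1, a thionin of the same list, went against the others between pairs, with 181 and 133 CPM in *ref6*, against 93.4 and 236 CPM in Col-0.

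The levels in *elf6* and *jmj13* differed from each other for these genes. VSP2 had 1442 and 1651 CPM in *elf6*, as high as in *ref6*, and 561 and 612 CPM in *jmj13*, as low as in Col-0. Of the 9 responsive genes, 2 were higher in both *ref6* libraries than in all 6 others. Of the JAZ repressors, which jasmonate signalling induces, 0 of 9 tested genes passed 2-fold in both pairs, with medians of −0.29 and 0.4 in the pairs of replicates 1 and 2. JAZ7 had 15.6 and 26.8 CPM in *ref6*, against 41.3 and 15.4 CPM in Col-0, and JAZ12 and JAZ6 had log2 fold changes of −0.31 and 0.2.

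The glucosinolate and myrosinase list, also chosen after the values were seen, gave 8 of 9 tested genes higher in both pairs, with a median log2 fold change of 0.73. These genes make or break down the mustard oil precursors of the family. The list summed to 2303.5 and 3659.5 TPM (a level scaled by transcript length and library) in *ref6*, against 1450.4 and 2409.3 TPM in Col-0. The *elf6* and *jmj13* libraries had 2350.9 to 2874.5 TPM, within the range of *ref6*. MBP1, a myrosinase-binding protein, had 331 and 213 CPM in *ref6*, against 116 and 109 CPM in Col-0 (log2 fold change 1.27 ± 0.303, edgeR adjusted p = 0.688). ESP, the epithiospecifier protein that turns the breakdown toward nitriles, had 179 and 141 CPM in *ref6*, against 113 and 74 CPM in Col-0. IGMT5, an indole glucosinolate methyltransferase, had 4.63 and 4.97 CPM in *ref6*, against 0.572 and 0.69 CPM in Col-0 (log2 fold change 2.9 ± 0.51, edgeR adjusted p = 0.222). The jacalin lectins, a family that includes JAL23 and JR1, had 5 of 8 tested members higher in both pairs and a median of 0.66. Other tested lectins overlapped, such as JAL34 with 2.49 and 2.64 CPM in *ref6*, against 3.09 and 1.55 CPM in Col-0. The lectin list summed to 182.6 and 257.6 TPM in *ref6*, against 76.7 and 108.2 TPM in Col-0. The *elf6* and *jmj13* libraries had 147.7 to 178.7 TPM, all above Col-0. Both *ref6* libraries lay above all 6 others in 3 lectins and 4 glucosinolate genes (2.7% of all tested genes). Both Col-0 libraries lay below all 6 others in 2 genes of each list (4.46%).

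**Figure D3:**
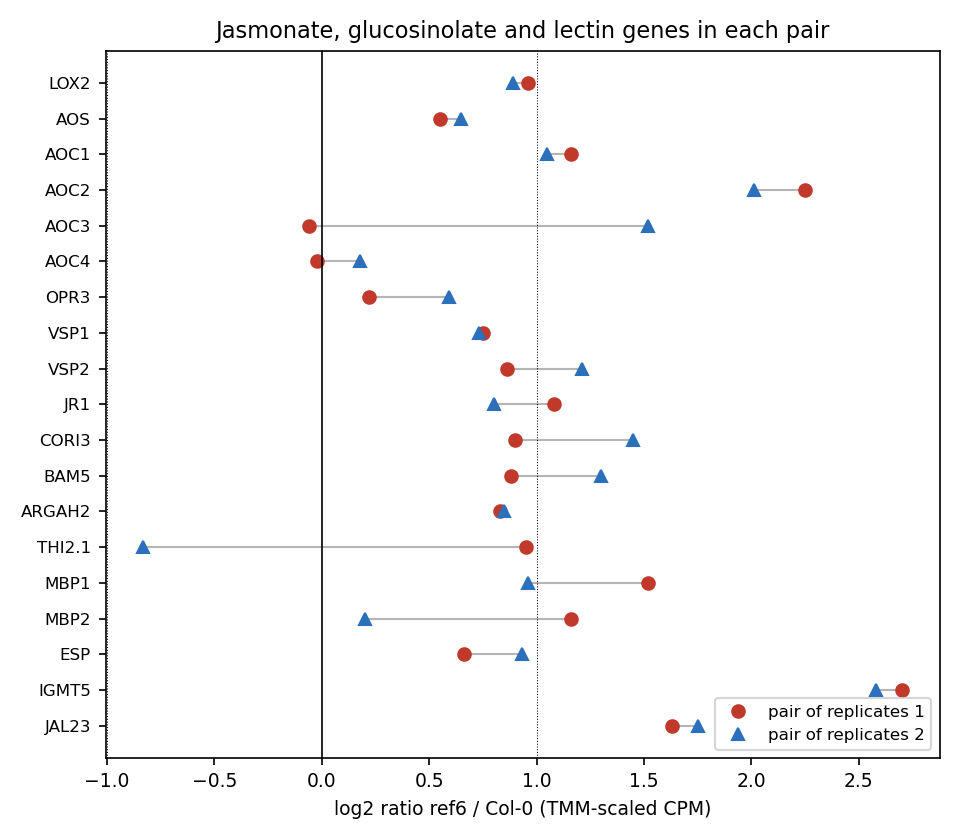
Log2 ratio of ref6 over Col-0 (x axis) in the pair of replicates 1 (red circles) and the pair of replicates 2 (blue triangles) for 19 genes of the jasmonate, glucosinolate and lectin lists, joined by a grey line, with dotted lines at 2-fold. Most genes lie to the right of 0 in both pairs, with LOX2 at 0.96 and 0.89, while THI2.1 has 0.95 in one pair and −0.83 in the other.

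Families typical of pollen made up part of the lower group. Growing pollen secretes RALF peptides, cysteine-rich proteins and inhibitors of pectin methylesterase, which act on the wall of the pollen tube, and small S1-type proteins related to the poppy self-incompatibility factor are also abundant there. These lists were chosen after the values were seen. Over all tested genes, 5485 of 19939 were lower in both pairs, 1.14% were at least 2-fold lower in both and 0.491% at least 2-fold higher. Of 21 tested RALF-like genes, 3 passed 2-fold lower in both pairs and 15 were lower in both, with a median log2 fold change of −0.54. Of 12 tested S1-family genes, 5 passed 2-fold lower in both and 11 were lower in both, with a median of −1.53. Of 61 tested genes annotated to the plant invertase/pectin methylesterase inhibitor superfamily, called inhibitors below, 6 passed lower and 1 higher, with a median of −0.47. The annotation is not specific to such inhibitors, as the pectin methylesterase VGD1 carries it too. Of 17 tested low-molecular-weight cysteine-rich genes, 2 passed lower, with a median of −0.66. The summed level of the cysteine-rich list was about equal, at 3563 and 2211 TPM in *ref6*, against 3503 and 2248 TPM in Col-0. RALF-like genes summed to 1710 and 1543 TPM in *ref6*, against 2663 and 2051 TPM in Col-0. The S1 family summed to 43.0 and 51.5 TPM, against 133.9 and 102.4 TPM, and the inhibitors to 2795 and 2749 TPM, against 3118 and 3826 TPM.

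RALFL15 had 11.1 and 5.2 CPM in *ref6*, against 30.5 and 12.8 CPM in Col-0. RALFL26 had 36.1 and 22.1 CPM in *ref6*, against 73.8 and 50.9 CPM in Col-0, and RALFL25 had 3.73 and 3.34 CPM in *ref6*, against 17 and 8.54 CPM in Col-0. AT1G10770, annotated to the inhibitor superfamily, had 42 and 77.4 CPM in *ref6*, against 139.5 and 171 CPM in Col-0 (log2 fold change −1.37 ± 0.353, edgeR adjusted p = 0.812). In these genes both Col-0 libraries lay above the 4 *elf6* and *jmj13* libraries, with RALFL26 at 11.4 to 28.5 CPM and AT1G10770 at 55.6 to 91.9 CPM.

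LCR17, a cysteine-rich protein, had 6.44 and 7.22 CPM in *ref6*, against 20.6 and 18.204 CPM in Col-0. AT1G51250, of the S1 family, had 9.72 and 4.5 CPM in *ref6*, against 35.8 and 11 CPM in Col-0. Both Col-0 libraries lay above all 6 others in 8 of 21 RALF-like genes, in 4 of 12 S1-family genes, in 13 of 61 inhibitors and in 3 of 17 cysteine-rich genes, against 3.2% of all tested genes. Both *ref6* libraries lay below all 6 others in 1 RALF-like gene, 0 S1-family genes, 2 inhibitors and 1 cysteine-rich gene, against 3.87% of all tested genes.

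Markers of late pollen are given beside these families. Of 8 tested markers, 0 passed 2-fold in both pairs and 4 were lower in both, with a median log2 fold change of −0.58 (lowest edgeR adjusted p = 0.999). The summed level of the 10 marker genes was 1056.2 and 1129.6 TPM in *ref6*, against 1621.5 and 2570.0 TPM in Col-0, and 681.1 to 2199.9 TPM in *elf6* and *jmj13*. AGP6, an arabinogalactan protein of pollen, had 313 and 219 CPM in *ref6*, against 608 and 540.4 CPM in Col-0, and AGP11 had 525 and 267 CPM in *ref6*, against 856 and 761 CPM in Col-0. VGD1, a pollen tube pectin methylesterase, overlapped, with 278 and 328 CPM in *ref6*, against 236 and 602 CPM in Col-0. The part of bud stage in the family values was not tested.

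**Figure D4:**
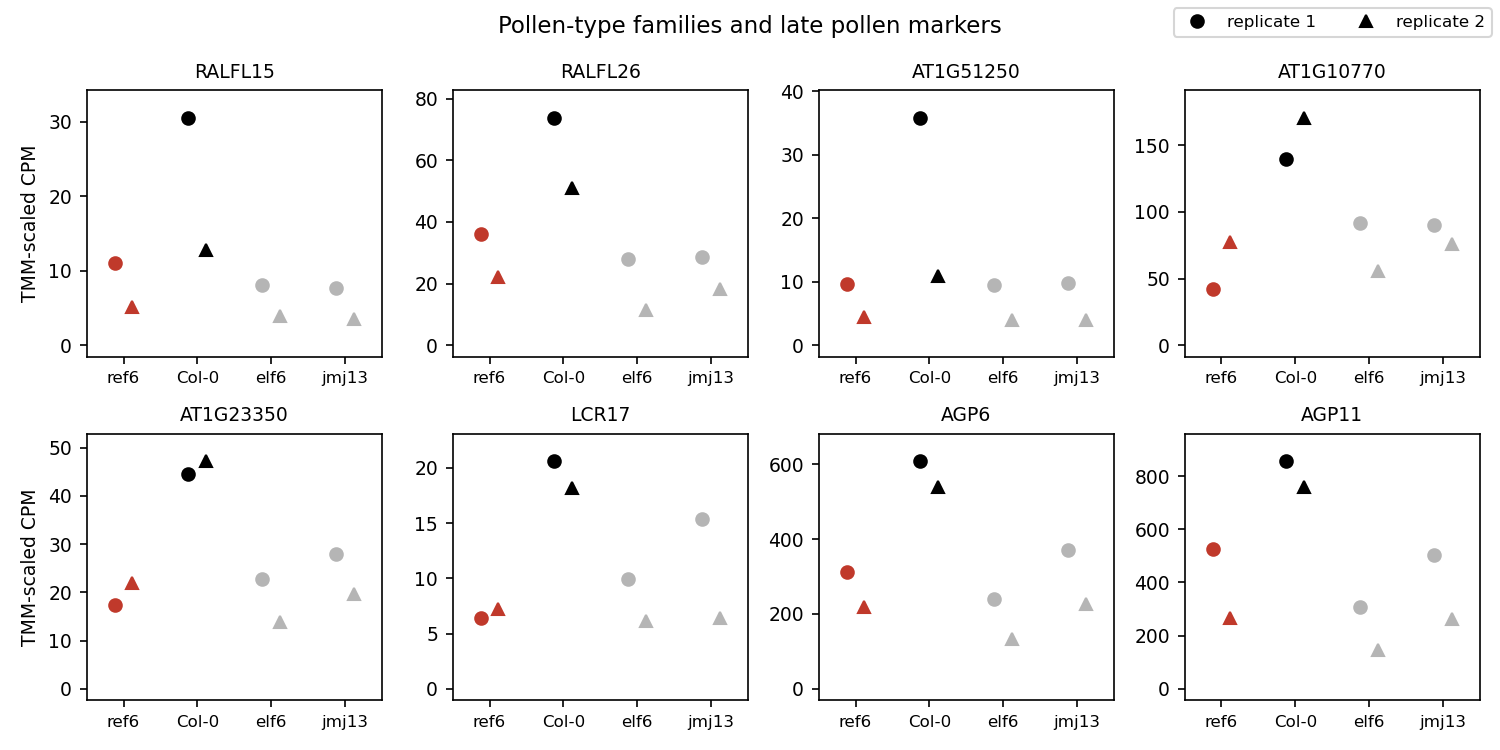
TMM-scaled CPM (y axis) of 6 genes of pollen-type families and of the late pollen markers AGP6 and AGP11 in each library, with circles for replicate 1 and triangles for replicate 2. The Col-0 libraries are the highest in each panel, as in AGP6 with 608 and 540.4 CPM, and the ref6 libraries lie among or near the grey elf6 and jmj13 libraries.

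Markers of other tissues were compared in the same way. Photosynthetic markers summed to 185799 and 119506 TPM in *ref6*, against 171209 and 128006 TPM in Col-0, so replicate 1 was the higher library in both genotypes, and RBCS1A, CAB1 and LHB1B2 had log2 fold changes of −0.15 to 0.17. Tapetum markers summed to 853.7 and 1558.8 TPM in *ref6*, against 1658.4 and 1462.4 TPM in Col-0, with A9, EXL4 and GRP17 at log2 fold changes of −0.81 to 0.01. Of 6 tested meiosis markers 0 passed 2-fold in both pairs, with DMC1 at −0.27, and seed and embryo markers summed to 1.38 TPM or less in all 4 libraries.

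CUC1 was the gene of the organ boundary and meristem list that was 2-fold lower in both pairs, 1 of 8 tested. It had 2.6 and 1.01 CPM in *ref6*, against 8.92 and 3.02 CPM in Col-0. The pairs differed alike, with log2 ratios of −1.71 and −1.44, but *elf6* and *jmj13* libraries had 1.74 to 4.09 CPM and Col-0 replicate 1 was the library that stood apart. The log2 fold change was −1.75 ± 0.614 (edgeR adjusted p = 0.999). STM and LOB, which act in the meristem and at organ boundaries, had log2 fold changes of 0.08 and −0.32.

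Words of the REF6 motif were searched in the gene span and in the 250 bases before each gene, on both strands. The words are CTCTGCTC, CTCTGCTT, CTCTGTTC and CTCTGTTT. The span of CUC1 held 6 of them, 5 within 300 bases, a density reached by 0.2% of tested genes, and AT5G39850 held 3 within 300 bases, reached by 2.5%. XTH9, a wall enzyme with no difference between genotypes, held 4 within 300 bases, reached by 0.6%. The 3 stretches are shown to set a lower gene with known binding, the DEG and a gene without a difference side by side. They lie at chr3:5110418-5110717, chr5:15950145-15950347 and chr4:1416205-1416278 on the plus strand of TAIR10.1, the first across intron and coding bases and the others in introns, and capitals mark the words.
CUC1: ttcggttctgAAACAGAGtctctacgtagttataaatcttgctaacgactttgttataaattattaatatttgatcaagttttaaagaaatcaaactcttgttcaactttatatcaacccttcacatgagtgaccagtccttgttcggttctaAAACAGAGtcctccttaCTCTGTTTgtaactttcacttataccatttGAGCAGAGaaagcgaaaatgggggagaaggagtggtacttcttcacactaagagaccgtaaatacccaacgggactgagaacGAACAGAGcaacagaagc
AT5G39850: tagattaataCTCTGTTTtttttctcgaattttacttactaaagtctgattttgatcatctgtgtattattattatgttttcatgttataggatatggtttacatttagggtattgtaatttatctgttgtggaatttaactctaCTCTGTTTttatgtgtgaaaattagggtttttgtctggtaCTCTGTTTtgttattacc
XTH9: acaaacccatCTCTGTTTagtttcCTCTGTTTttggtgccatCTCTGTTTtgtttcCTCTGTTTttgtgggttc

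XTH9 had 259 and 400.2 CPM in *ref6*, against 334 and 323 CPM in Col-0 (log2 fold change 0.01 ± 0.303, edgeR adjusted p = 0.999). A word was present in the span of 66.7% of the lower genes with an annotation and 56.0% of the higher genes, against 63.1% of all tested genes. The number of words per kilobase of gene span differed more, at 0.871 over the lower genes and 0.537 over the higher genes, against 0.443 over all tested genes. The median per gene was 0.75 in the lower genes and 0.4 in the higher genes, against 0.359, and without the gene that holds the most words the lower genes had 0.858. The median gene span was 1681 bases in the lower genes and 2086 in the higher genes, against 2398 bases, and the part of gene length and base composition in the density was not tested. In the 250 bases before the gene the shares were 4.7% and 8.8%, against 5.3%. These matches are descriptions of letters and say nothing of binding in the bud.

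One of the denser promoters belonged to Cpn60beta3. The 250 bases before it, at chr5:22873416-22873665, held 3 motif words and 2 copies of CACGTG, the G-box bound by bHLH and bZIP factors, and capitals mark both. CACGTG was found before 7.3% of tested genes, 6.6% of the higher and 6.1% of the lower genes.
Cpn60beta3 promoter: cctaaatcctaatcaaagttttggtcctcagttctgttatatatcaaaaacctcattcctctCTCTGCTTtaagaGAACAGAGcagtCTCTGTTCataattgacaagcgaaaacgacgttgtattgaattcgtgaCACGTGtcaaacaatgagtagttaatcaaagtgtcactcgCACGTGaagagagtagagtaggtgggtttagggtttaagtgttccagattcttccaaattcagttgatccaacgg

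The floral organ identity genes had 0 of 14 tested members beyond 2-fold in both pairs, against 0.491% higher and 1.14% lower over all tested genes. By any amount, 8 of the 14 were lower in both pairs and 1 higher, against 5485 and 4932 of 19939 tested genes. Both *ref6* libraries lay below all 6 others in 4 of the 14, against 3.87% of all tested genes. SEP3, AP1 and PI, the most abundant members of the list, had log2 fold changes of −0.08, −0.1 and −0.25. Of 9 tested genes of the ovule and carpel list, INO was 2-fold lower in both pairs and 5 were lower in both, with a median log2 fold change of −0.17 and values of −1.83 to 0.61. STK, which sets ovule identity and belongs to the organ identity list, had 3.17 and 4.04 CPM in *ref6*, against 6.4 and 7.07 CPM in Col-0, and SHP1 had 4.97 and 6.13 CPM in *ref6*, against 8.23 and 11 CPM in Col-0. INO, needed for the outer integument of the ovule, had 0.791 and 0.621 CPM in *ref6*, against 1.83 and 3.11 CPM in Col-0, and 3.87 to 5.17 CPM in the other libraries (log2 fold change −1.83 ± 0.473, edgeR adjusted p = 0.827). The *ref6* libraries were the lowest of all 8 for INO, SHP1 and STK, as they were in 3.87% of all tested genes. Summed ovule and carpel markers were 99.2 and 136.7 TPM in *ref6*, against 97.6 and 187.2 TPM in Col-0, with CRC and ANT at log2 fold changes of −0.37 and 0.15. STK and SHP1 were chosen after their values were seen, and the part of bud stage in these values was not tested.

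The brassinosteroid, senescence, clock and expansin lists, of 14, 10, 12 and 18 tested genes, gave single higher or lower members beyond 2-fold in both pairs. Those members had few counts. BR6OX1, which completes brassinosteroid synthesis, had 1 and 11 counts in *ref6*, against 10 and 22 counts in Col-0, while CPD and BES1 of the same list had log2 fold changes of 0.01 and 0.16. NYE2, a chlorophyll breakdown gene, had 3 and 0 counts in *ref6*, against 12 and 33 counts in Col-0, at least 7.38-fold lower at the floor, but the *elf6* and *jmj13* libraries were also uneven, at 0.158 to 2.8 CPM. ORE1, a senescence regulator, had 10 and 16 counts in *ref6*, against 4 and 3 counts in Col-0. ELF4 of the clock had 0.565 and 0.233 CPM in *ref6*, against 1.37 and 0.776 CPM in Col-0, with RVE8 and GI at log2 fold changes of −0.4 and 0.65. EXPA14, an expansin, had 1.36 and 1.09 CPM in *ref6*, against 3.09 and 2.59 CPM in Col-0, and the abundant EXPA6 and EXPB3 had −0.14 and −0.11. None passed the adjusted threshold (edgeR adjusted p = 0.999 for the named genes of this paragraph).

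The Polycomb, flowering time, histone and heat shock lists held 0 genes beyond 2-fold in both pairs. Over all tested genes 0.491% were that much higher and 1.14% lower, so 0 in lists this short is near the background. Of 12 tested Polycomb genes the median log2 fold change was 0.03, with MSI1, FIE and EMF2 between −0.2 and 0.05. Of 10 tested genes of the FLC clade and flowering time the median was 0.23, with MAF1, MAF2 and SOC1 at −0.27, 0.22 and 0.08. The 19 tested histones had a median of −0.15, and 6 heat shock genes had 0.05, with HSP18.2 at 0.69. Of 255 tested genes annotated as ribosomal proteins, AT5G39850 was the 1 at least 2-fold lower in both pairs, and the median was −0.09. By any amount, 109 were lower in both pairs and 27 higher in both, against 5485 and 4932 of 19939 tested genes.

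The median of the touch and wound list was −1.31 in the pair of replicates 1 and 0.73 in the pair of replicates 2. Of 13 tested genes, *ref6* lay above Col-0 without overlap in 4 and below in 2, against 13.6% and 12.5% of all tested genes. TCH4, a touch-induced wall enzyme, had 6.33 and 56.8 CPM in *ref6*, against 102 and 77.7 CPM in Col-0, without overlap. ERF6 had 58.9 and 111 CPM in *ref6*, against 147 and 56.3 CPM in Col-0. TCH2 had 20.2 and 38.3 CPM in *ref6*, against 103 and 29.6 CPM in Col-0. Both ERF6 and TCH2 overlapped. The summed level was 160.5 and 510.5 TPM in *ref6*, against 443.0 and 337.5 TPM in Col-0, so that *ref6* replicate 1 was the lowest library of the series.

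Against the mean of *elf6* and *jmj13*, in place of Col-0, 11 genes were DEGs in *ref6* (0.0552% of 19939), 7 higher and 4 lower. The 4 that fell were AT5G39850, AT1G65370, AT1G51670 and Cpn60beta3, each also lower in both pairs. The 7 that rose were AT1G67105, AT4G11310, JAL23, LSH10, ESP, AT3G27250 and AT5G49138, of which AT1G67105, AT4G11310, JAL23 and LSH10 were also 2-fold higher in both pairs. AT1G67105 had the largest difference, 6.36 ± 0.534 on the log2 scale (edgeR adjusted p = 0.00404). This comparison shares the *ref6* libraries with the one against Col-0, and was added after the data were seen. The count was 23 with the replicate block, 4 without *ref6* replicate 1, 617 without *ref6* replicate 2, 20 without Col-0 replicate 1 and 19 without Col-0 replicate 2.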

How the data were processed

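Single-end mRNA reads were aligned by the authors to TAIR10 with Bowtie2, and RSEM is named in their processing notes, without versions. Each library's table, as deposited, gives expected counts beside FPKM (counts scaled by the authors for transcript length and library size). A gene missing from a library's table was taken as 0. Expected counts were rounded to whole numbers. Genotype and replicate number came from the labels. Of 25738 genes, 19939 passed filterByExpr (edgeR 4.0.16), and 1 genotype factor was fitted over all 8 libraries with TMM scaling and the quasi-likelihood test, Benjamini-Hochberg adjusted. Pair ratios used log2 TMM-scaled CPM with a prior count of 2, without a test. The Col-0 and *ref6* replicates spread more than the others, which the shared fit averages. Alternatives used DESeq2 1.42.0, limma 3.58.1 on log2(FPKM + 1) and NOISeq-type criteria on TPM rescaled from FPKM, applied without the NOISeq program. The edgeR, DESeq2, limma, NOISeq-type and pair calls were run on simulated data. Those counts were drawn independently for each library, with the same spread in every genotype. They lack the deviation shared by replicate 1 of *ref6* and Col-0, so they do not show how the calls behave under it. Leaving out each library, other scalings and filters and a replicate block were also tried. Totals of 11466208 to 12048319 expected counts in the 4 libraries leave genes under 50 counts imprecise, and floors of 3 counts cover counting error only.

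Named were REF6, ELF6, JMJ13, the DEGs with and without the replicate block, the 12 higher and 12 lower genes with the largest smaller pair ratio at a mean of at least 50 counts, and, per list, up to 4 members alike in both pairs, filled up to 3 with the most abundant members where fewer than 2 were alike. Also named were the DEGs against the mean of *elf6* and *jmj13*, such as Cpn60beta3, from a comparison added after the data were seen. Others are said to be chosen after their values were seen. Some genes that the rule names are not reported here. Members and lists were chosen with earlier results of these data known. Gene names, sequences and coordinates are from RefSeq TAIR10.1, which matched 24229 loci. The deposited tables hold no coordinates.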

Additional observations from a re-analysis of the deposited data

Results flagged for a closer look

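In 11 genes the difference of *ref6* from Col-0 was not the difference shown by *elf6* and *jmj13* from Col-0, tested as *ref6* against the mean of the 2 other mutants in edgeR (adjusted p under 0.05). Col-0 cancels in this contrast. On the log2 scale the difference was 6.36 in AT1G67105, 2.76 in AT3G27250, 2.6 in AT4G11310, 2.48 in AT5G49138, 2.37 in LSH10, 1.68 in ESP and 1.64 in JAL23. It was −3.09 in AT1G65370, −2.79 in AT5G39850, −2.31 in AT1G51670 and −2.05 in Cpn60beta3. AT3G27250, of unknown function, had 12.8 and 7.53 CPM in *ref6*, against 8.01 and 4.31 CPM in Col-0 and 0.879 to 2.44 CPM in the other 4 libraries. AT5G49138, a long noncoding RNA gene, had 37.4 and 15.4 CPM in *ref6*, against 20.7 and 14 CPM in Col-0 and 4.26 to 5.35 CPM in the others. In both AT3G27250 and AT5G49138 *ref6* and Col-0 overlapped. The span of AT5G49138 overlaps AT5G49130 on the opposite strand, identical over 1707 aligned bases, so reads of AT5G49130 may be counted with it.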

How the results depend on the processing

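With 2 libraries a genotype, the DEG count depended on the test. Against the 1 DEG, there were 33 with DESeq2, 32 with no filter on low counts and 14 by NOISeq-type criteria. Those criteria were applied to TPM rescaled from FPKM, without the NOISeq program, so their count does not stand for the published one. The study reports more genes for *ref6* with NOISeq itself. There were 33 DEGs with the 2 libraries that stand apart as a block, which was chosen after seeing the data. There were 0 with scaling by library size, a mean of at least 50 counts, only the 4 libraries compared, limma on log2(FPKM + 1) or a mean FPKM of at least 1, and 0 to 1 when 1 library was left out. The replicate block gave 2 DEGs over 8 libraries and 126 over the 4 libraries, where 1 residual degree of freedom is left. The labels do not say that a number marks a shared batch, and the replicate ratios of *ref6* and Col-0 correlated at 0.364 over 2 pairs. AT5G39850 missed the threshold at −2.57 by library size, −2.65 with the mean of 50 counts or the 4 libraries, −2.33 and −2.62 in limma, and −3.01 to −2.39 without 1 library. Against *elf6* and *jmj13* the 11 DEGs became 185 with DESeq2, 241 with no filter, 23 with the replicate block, 39 with the block of 2 libraries, and 4 to 617 without 1 library (4 without *ref6* replicate 1, 617 without *ref6* replicate 2). The 325 genes alike in both pairs became 1134 at 1.5-fold, 83 at 3-fold, 82 at a mean of 50 counts and 166 in all 4 ratios. Some log2 fold changes turned sign without 1 library, including moderate ones such as AT5G49138 at 0.6 and VGD1 at −0.47 over all 8 libraries: ANT −0.05 to 0.38, AP1 −0.41 to 0.15, AT5G49138 −0.16 to 1.11, BES1 −0.09 to 0.46, CAB1 −0.99 to 1.11, CPD −0.37 to 0.31, DMC1 −0.66 to 0.23, EMF2 −0.02 to 0.12, ERF6 −0.8 to 0.6, EXL4 −0.67 to 0.03, EXPB3 −0.3 to 0.09, GRP17 −0.15 to 0.18, HSA32 −0.99 to 0.38, HTA10 −0.6 to 0.42, HTA13 −0.71 to 0.46, HTA9 −0.45 to 0.15, JAZ7 −0.97 to 0.47, JMJ13 −0.56 to 0.32, JMJ30 −0.79 to 0.38, LHB1B2 −1.2 to 0.91, MAF2 −0.15 to 0.51, MBF1C −0.56 to 0.34, MSI1 −0.42 to 0.06, P40 −0.73 to 0.9, PI −0.49 to 0.04, RBCS1A −0.57 to 0.17, REF6 −0.05 to 0.62, SCR −0.22 to 0.46, SEP3 −0.19 to 0.02, SOC1 −0.5 to 0.46, STM −0.09 to 0.27, THI2.1 −0.59 to 0.74, VGD1 −0.99 to 0.35, XTH4 −0.24 to 0.45, XTH9 −0.34 to 0.28. Under other settings the turned values were AP1 0.02, CPD −0.01, ERF6 0.05, MBF1C 0.1 and 0.15, SEP3 0.01, THI2.1 0.06 and 0.1 and 0.11 and 0.05, XTH9 −0.03. Genes under 50 counts are limited by depth.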
